A study of Rattus norvegicus with 12 samples.

Results

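The basement membrane genes followed here are Col4a1 and Col4a2 (type IV collagen), Lama2, Lama4, Lamb1, Lamb2 and Lamc1 (laminin chains), Nid1 and Nid2 (nidogens) and Hspg2 (perlecan). Every probe set of the array table whose only platform gene symbol was 1 of these 10 names was taken, which gave 14 probe sets of the 31042 tested, and 10 genes of the 14217 that had a probe set of their own. Col4a1, Lama4, Lamc1 and Nid1 had 2 probe sets each, called here the brighter and the dimmer by their mean over the 6 arrays. The rule uses no measured value, but the members were chosen with earlier results of these data known.

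RNA came from F111 cells, a normal fibroblast line of the Fischer rat that is kept in culture and that the study found to carry chromosome abnormalities. Tumor cells were grown in culture out of trypsin-treated tumour explants. The labels put these tumours 3 months past the injection of NA16 cells (F111 cells that had been held 16 h in suspension) under the skin of homozygous nude mice. A16 cells, the control, were F111 cells that adhered to plastic for 16 h. The labels give 10% serum for both, whereas the methods of the study name a higher level for the explants, so that serum may differ between the groups, and whether mouse cells were removed from the explants is not stated. Biotinylated cRNA was hybridised to Affymetrix rat arrays, 3 per group, which count as n = 2 replicates because technical replicate 2 was averaged with replicate 1. Whether the biological replicates stem from separate cultures or mice is not in the labels, and the p-values then speak only of the spread among these samples, which may be technical. The NA16 and colony cells of the study were not analysed here.

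A basement membrane is the thin sheet of matrix on which epithelial and endothelial cells rest and which wraps muscle, fat and nerve cells. Laminins, each built from an alpha, a beta and a gamma chain, polymerise on the cell surface, and type IV collagen forms a covalently crosslinked network beside them. Nidogens and the heparan sulfate proteoglycan perlecan link these networks. Fibroblasts make part of these proteins, and cells hold on to the sheet through integrins, dystroglycan and syndecans.

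The start regions are printed for Col4a1, Nid1, Lama4 and Hspg2. That of Col4a2, the divergent neighbour of Col4a1, is printed only where it lies in the Col4a1 window. The regions are RefSeq windows of the GRCr8 assembly with 250 bases before and 50 from each annotated start. Each is written 5′ to 3′ on the strand of the gene. Of the 10 genes, 8 had such a window, and Lamb2 and Nid2 had none in the table used. Col4a1 (chr16:84885347-84885646, plus strand) and Col4a2 (chr16:84885471-84885770, minus strand) start head to head, 77 bases apart, and their windows share 176 bases. In the window of Col4a1 the capitals mark the 76 bases between the starts.
Col4a1: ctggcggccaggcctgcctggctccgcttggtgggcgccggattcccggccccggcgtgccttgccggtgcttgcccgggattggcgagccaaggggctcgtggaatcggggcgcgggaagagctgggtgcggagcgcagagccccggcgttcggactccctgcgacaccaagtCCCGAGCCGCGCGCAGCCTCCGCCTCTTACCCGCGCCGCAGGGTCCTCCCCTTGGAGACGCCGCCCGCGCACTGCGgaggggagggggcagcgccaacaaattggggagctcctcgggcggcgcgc
In the windows of Nid1 (chr17:93069036-93069335, plus strand), Lama4 (chr20:43946648-43946947, plus strand) and Hspg2 (chr5:154960596-154960895, plus strand) the capitals mark matches, on either strand, to the GC box (GGGCGG), the CCAAT box (CCAAT) or the TATA box (TATAAA).
Nid1: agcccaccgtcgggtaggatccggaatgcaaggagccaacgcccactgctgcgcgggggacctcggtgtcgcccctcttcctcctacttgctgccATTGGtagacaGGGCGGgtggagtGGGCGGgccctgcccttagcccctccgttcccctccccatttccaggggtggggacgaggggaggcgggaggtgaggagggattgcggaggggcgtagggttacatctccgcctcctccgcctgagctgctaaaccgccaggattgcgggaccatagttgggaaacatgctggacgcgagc
Lama4: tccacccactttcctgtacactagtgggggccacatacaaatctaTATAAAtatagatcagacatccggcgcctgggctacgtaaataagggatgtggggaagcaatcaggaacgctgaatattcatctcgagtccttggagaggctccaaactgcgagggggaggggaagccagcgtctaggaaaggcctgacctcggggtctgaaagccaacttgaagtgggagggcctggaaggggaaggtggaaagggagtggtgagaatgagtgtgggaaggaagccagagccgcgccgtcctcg
Hspg2: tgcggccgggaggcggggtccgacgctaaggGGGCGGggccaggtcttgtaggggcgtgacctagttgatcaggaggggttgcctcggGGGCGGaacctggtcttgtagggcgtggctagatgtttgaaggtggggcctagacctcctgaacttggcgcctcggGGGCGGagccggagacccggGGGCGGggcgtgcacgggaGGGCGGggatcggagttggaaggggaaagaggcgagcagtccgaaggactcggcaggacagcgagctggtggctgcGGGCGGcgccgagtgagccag
The GC box was found in 7 of the 8 windows and in 33.1% of the 33469 windows of the whole table. The exception was Lama4, whose only match was a TATA box at -205 to -200, counted from the start. Hspg2 held 6 GC boxes, and Nid1 held 2 GC boxes and a CCAAT box. The CCAAT box was present in 4 of the 8 windows (37.5% of all windows), and the TATA box in 1 of the 8 (14.2% of all windows). The 2 GC boxes in the Col4a1 window lie at -16 to -11, between the starts of Col4a1 and Col4a2, and at 39 to 44, and both also lie in the Col4a2 window. No matches to different motifs overlapped each other in these windows, and a match describes letters only.

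**Figure D1:**
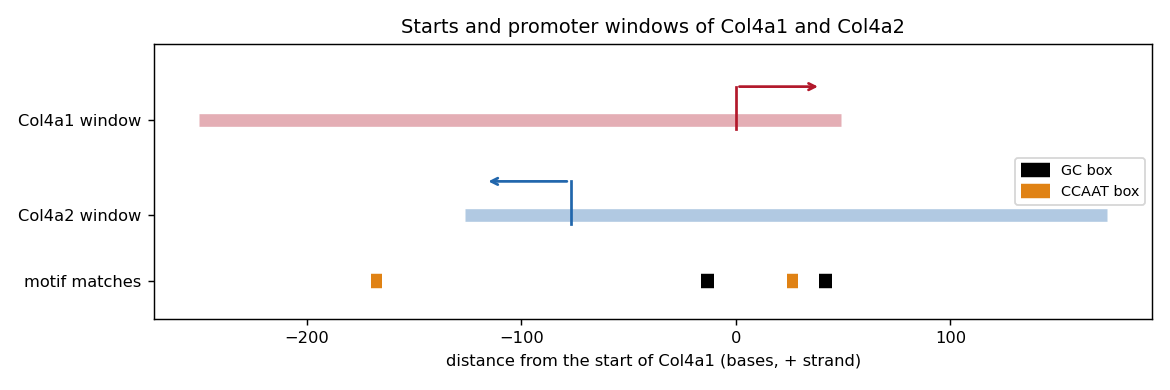
Position of the Col4a1 and Col4a2 windows (bars), starts and directions (arrows) and motif matches (black, GC box; orange, CCAAT box), as distance in bases from the start of Col4a1 on the plus strand (horizontal axis). The starts are 77 bases apart, and a GC box at -16 to -11 lies between them.

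Transcripts of the basement membrane genes were mostly lower in Tumor cells than in A16 cells, and none was called higher. A difference counted as called when its adjusted p in limma was under 0.05 and its size at least 2-fold. Nid1, Lama4 and Hspg2 fell on the probe set that stands for the gene, by 10.5-fold, 3.73-fold and 3.03-fold, while Col4a1 and Lamc1 were called lower on their dimmer probe sets and were lower by under 2-fold, at the adjusted p, on their brighter ones. Lamb1, the beta chain of many laminins, differed by 0.13 ± 0.15 on the log2 scale. Lama2, the alpha chain of the muscle and nerve basement membrane, was the only gene with all 3 Tumor arrays above the A16 arrays, in RMA but not in PLIER values.

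Of the 14 probe sets, 6 were called lower, 0 were called higher and 8 were not called, whereas 6.39% of all probe sets tested were called lower and 5.51% higher. Their median log2 difference, Tumor minus A16, was -0.90, against 0.034 over all 31042 probe sets. All 3 Tumor arrays lay below all 3 A16 arrays in 10 of the 14 (25.0% of all probe sets), all 3 lay above in 1 (27.6% of all), and the groups overlapped in 3. At the adjusted p alone, whatever the fold, 10 probe sets were lower (15.6% of all) and 1 was higher (16.3% of all), and the same counts were found at an unadjusted p under 0.05 (19.9% of all lower and 21.4% higher). With 1 probe set per gene, the brightest, 3 of the 10 genes were lower, 0 higher and 7 not called, against 5.44% lower and 5.45% higher of all 14217 genes. The gene median was -0.83. The PLIER records, a second summary of the same arrays, gave 5 probe sets lower (7.74% of all) and 0 higher (7.39% of all), and the sign of the difference was the same in 12 of the 14.

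**Figure D2:**
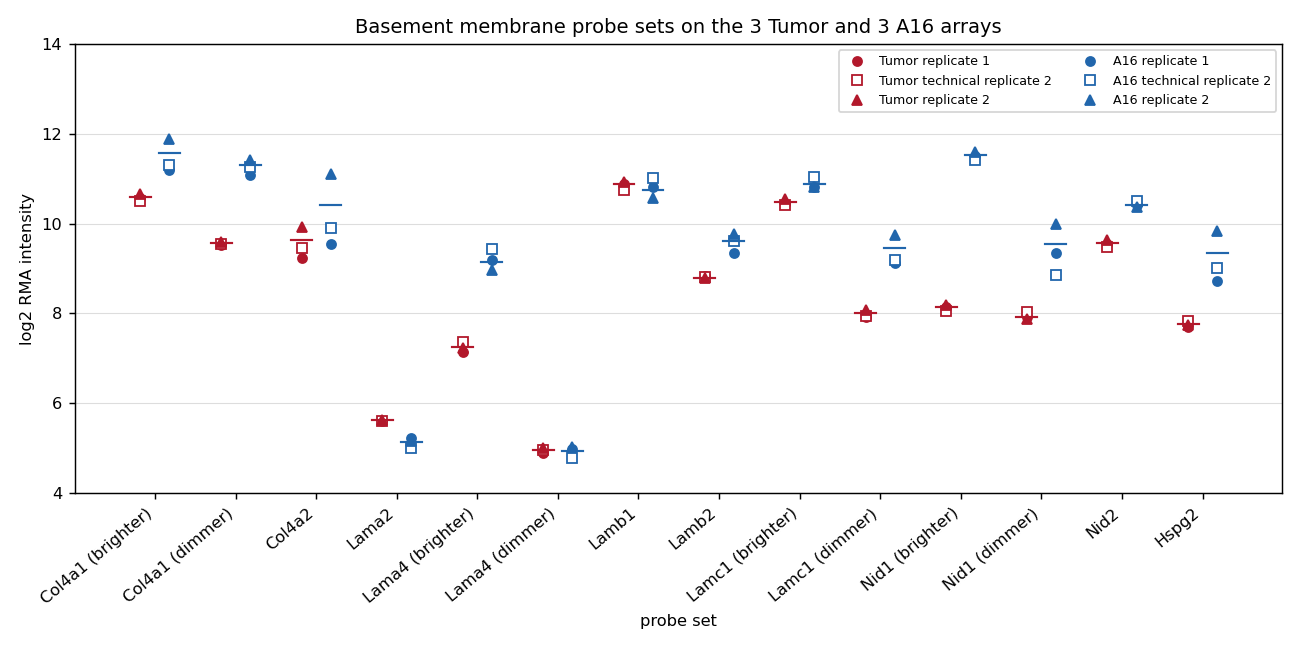
Log2 RMA intensity (vertical axis) of the 14 basement membrane probe sets (horizontal axis) on the 3 Tumor arrays (red, left of each pair) and the 3 A16 arrays (blue); open squares are technical replicate 2 and bars are the means of 2 replicates. The brighter Nid1 probe set stood at 8.06 to 8.18 on Tumor arrays and 11.42 to 11.60 on A16 arrays, while Col4a2 and Lamb1 overlapped between groups.

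**Figure D3:**
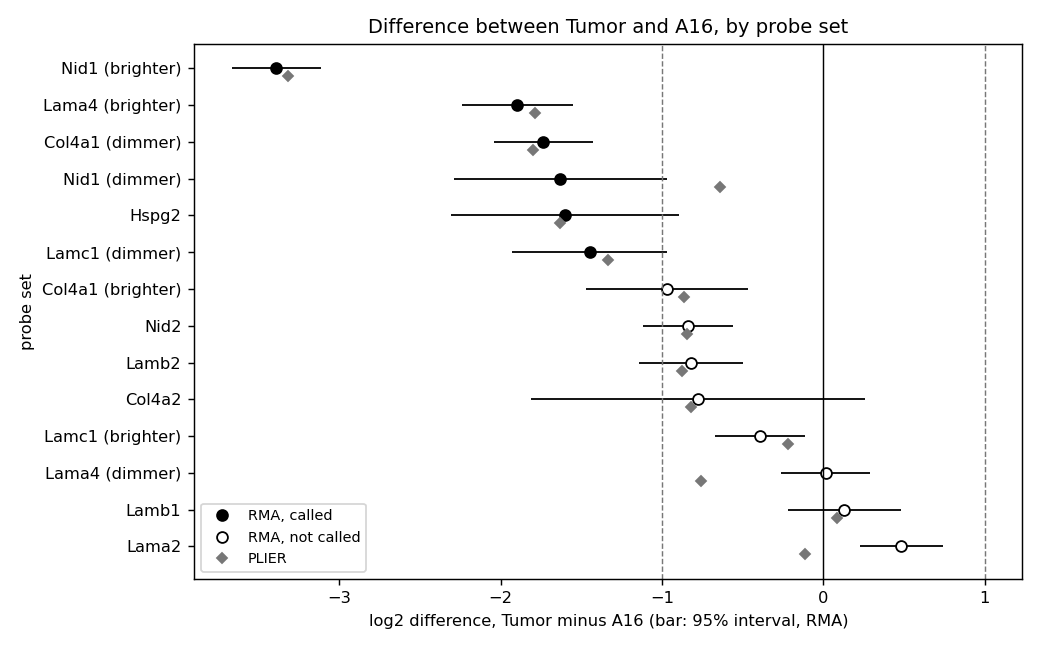
Log2 difference, Tumor minus A16 (horizontal axis), for each probe set (vertical axis), with the RMA value as a circle, its 95% interval as a bar and the PLIER value as a diamond; filled circles were called and dashed lines mark 2-fold. The values run between -3.39 for the brighter Nid1 probe set and 0.48 for Lama2, and the interval of Col4a2 (-1.81 to 0.26) is the widest.

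Col4a1 and Col4a2 encode the chains of the most widespread type IV collagen, in which chains of Col4a1 and Col4a2 wind into a triple helix. The brighter Col4a1 probe set (1373245_at) read 10.56, 10.50 and 10.65 log2 units in Tumor replicate 1, technical replicate 2 and replicate 2, against 11.18, 11.31 and 11.88 in the A16 arrays in the same order. The Tumor arrays lay close together and below all A16 arrays, of which replicate 2 was the highest. The means were 10.59 ± 0.082 in Tumor and 11.56 ± 0.45 in A16 (SD, n = 2 each), and the log2 difference of -0.97 ± 0.21 (SE; 95% interval -1.47 to -0.47) had an adjusted p of 0.0137 in limma but was under 2-fold and so was not called. The dimmer Col4a1 probe set (1372439_at) read 9.51, 9.53 and 9.60 in Tumor against 11.09, 11.26 and 11.42 in A16. It fell 3.33-fold (log2 difference -1.74 ± 0.13, adjusted p 0.000213), and 3.48-fold under PLIER, with no overlap between the groups.

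Col4a2 (1388494_at) read 9.24, 9.46 and 9.93 in Tumor, against 9.54, 9.91 and 11.10 in A16. Tumor replicate 2 lay above A16 replicate 1 and technical replicate 2, so that the groups overlapped. The log2 difference was -0.78 ± 0.43 (95% interval -1.81 to 0.26, adjusted p 0.233), an interval that spans 0. Without A16 replicate 1 the differences were -1.28 for the brighter Col4a1 probe set and -1.46 for Col4a2, both then called lower. Without A16 replicate 2 they were -0.65 and -0.088, and neither was called. Under PLIER the brighter Col4a1 probe set had -0.86 and Col4a2 -0.82. Replicate 2 was highest in both groups for Col4a2 and for both Col4a1 probe sets. The same held for the brighter Nid1 and the dimmer Lamc1 and Lama4 probe sets, so it was not particular to the head-to-head pair.

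Among the laminin alpha chains, Lama4 fell and Lama2 stayed near the lower end of the array. Lama4 encodes the alpha chain of laminins around blood vessels, muscle fibres and fat cells. Its brighter probe set (1389214_at) read 7.14, 7.37 and 7.23 in Tumor, against 9.18, 9.43 and 8.97 in A16. The groups lay well apart, and the 3.73-fold fall (log2 difference -1.90 ± 0.14, adjusted p 0.00023) was also called under PLIER (-1.79). Leaving out any 1 replicate kept the difference between -2.07 and -1.73. The dimmer Lama4 probe set (1396066_at) read 4.90, 4.95 and 4.99 in Tumor, against 4.98, 4.77 and 5.01 in A16. Its arrays overlapped, with a log2 difference of 0.014 ± 0.11 (95% interval -0.26 to 0.29), and they stood between percentiles 13.4 and 20.3 of their arrays, near the floor, where a fold understates a change. PLIER gave -0.76 for it (adjusted p 0.0471), under 2-fold and not called.

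Lama2 (1390404_at) read 5.61, 5.60 and 5.62 in Tumor, against 5.23, 5.00 and 5.15 in A16. The Tumor arrays were higher by 0.48 ± 0.11 on the log2 scale (adjusted p 0.0153), which is 1.40-fold and was not called. Its probe set stood at percentiles 31.5 to 32.2 of the Tumor arrays and 18.6 to 23.4 of the A16 arrays. Under PLIER the same arrays read 6.87, 6.74 and 7.64 in Tumor, against 7.47, 7.85 and 7.01 in A16. They overlapped, and the difference was of the opposite sign (-0.12, adjusted p 0.808), so that the direction for Lama2 rests on the summary method.

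Of the beta chains, Lamb2 was lower at the adjusted p and Lamb1 was not, and the gamma chain gave unequal values on its probe sets. Lamb1 (1373210_at) read 10.89, 10.74 and 10.93 in Tumor, against 10.82, 11.01 and 10.58 in A16. The groups overlapped, with a difference of 0.13 ± 0.15 (95% interval -0.22 to 0.48, adjusted p 0.565), whose sign turned to -0.038 without A16 replicate 2. PLIER gave 0.083. Lamb2, the beta chain of laminins at synapses and in the kidney filter (1367880_at), read 8.83, 8.81 and 8.78 in Tumor, against 9.34, 9.61 and 9.76 in A16. All Tumor arrays lay below the A16 arrays, and the difference of -0.82 ± 0.13 (1.77-fold lower, adjusted p 0.00449) passed the adjusted p but not the 2-fold limit. The intervals of Lamb1 and Lamb2 (-1.14 to -0.50) did not overlap, and the difference between these genes was not tested. PLIER gave -0.88 for Lamb2, and leaving out any 1 replicate kept its RMA value between -0.96 and -0.68.

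Lamc1 encodes the gamma chain found in most laminins. The brighter probe set (1371322_at) read 10.44, 10.41 and 10.54 in Tumor, against 10.82, 11.04 and 10.82 in A16, a log2 difference of -0.39 ± 0.12 that was 1.31-fold lower and not called (adjusted p 0.0427). The dimmer one (1370993_at) read 7.92, 7.95 and 8.08 in Tumor, against 9.12, 9.20 and 9.75 in A16, and fell 2.73-fold (-1.45 ± 0.20, adjusted p 0.00234). Tumor arrays lay below A16 arrays on both, yet the 95% intervals, -0.67 to -0.12 and -1.93 to -0.97, did not overlap. PLIER gave -0.22 (adjusted p 0.274) for the brighter and a 2.53-fold fall for the dimmer probe set.

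The nidogens bind both laminin gamma chains and type IV collagen. Nid1 had the largest difference of the 14 probe sets. On its brighter probe set (1371518_at) it read 8.15, 8.06 and 8.18 in Tumor, against 11.50, 11.42 and 11.60 in A16. The arrays of each group lay close together and far from those of the other group, with means of 8.14 ± 0.054 in Tumor and 11.53 ± 0.095 in A16 (SD, n = 2 each). The log2 difference was -3.39 ± 0.12 (95% interval -3.67 to -3.11, adjusted p 1.61e-05), a 10.5-fold fall, and 9.99-fold under PLIER. No other member interval overlapped this one. In linear intensity the Tumor arrays stood at 283.3, 266.3 and 289.4, against 2903.2, 2739.9 and 3096.5 in A16. The probe set ranked at percentiles 66.5 to 67.9 of the Tumor arrays and 95.9 to 96.6 of the A16 arrays. Leaving out any 1 replicate kept the difference between -3.46 and -3.32.

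The dimmer Nid1 probe set (1371032_at) read 7.92, 8.03 and 7.86 in Tumor, against 9.34, 8.87 and 10.00 in A16. The groups did not overlap, but the A16 arrays were spread over more than 1 log2 unit, and the fall was 3.10-fold (-1.63 ± 0.27, adjusted p 0.00514), with -0.64 (adjusted p 0.0639, not called) under PLIER. Nid2 (1388618_at), the second nidogen, read 9.54, 9.48 and 9.64 in Tumor, against 10.41, 10.51 and 10.37 in A16. All Tumor arrays were below the A16 arrays, with a difference of -0.84 ± 0.12 (1.79-fold lower, adjusted p 0.00236) that missed the 2-fold limit. PLIER gave -0.85, and leaving out any 1 replicate kept the RMA value of Nid2 between -0.91 and -0.77.

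Hspg2 encodes perlecan, whose protein core carries heparan sulfate chains that bind growth factors. Its probe set (1371771_at) read 7.71, 7.82 and 7.74 in Tumor, against 8.71, 9.02 and 9.84 in A16. The Tumor arrays lay close together and below every A16 array, while A16 replicate 2 stood well above the other A16 arrays. The means were 7.75 ± 0.015 in Tumor and 9.35 ± 0.69 in A16 (SD, n = 2 each), and the fall was 3.03-fold (-1.60 ± 0.29, 95% interval -2.31 to -0.89, adjusted p 0.00732). Leaving out A16 replicate 1 gave -2.09 and leaving out A16 replicate 2 gave -1.11, and both were called. In linear intensity the Tumor arrays stood at 208.8, 226.2 and 214.1, against 419.3, 517.8 and 917.3 in A16. PLIER gave a difference of -1.63, also called.

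The A16 arrays varied more than the Tumor arrays for these genes. The SD over replicates was larger in A16 for 13 of the 14 probe sets, an order that 58.1% of all probe sets showed, and its median was 0.065 in Tumor and 0.218 in A16, against 0.082 in Tumor and 0.105 in A16 over all probe sets. A16 replicate 2 was the highest A16 array for 9 of the 14 probe sets, or 64.3%, and for 31.0% of all. The array controls also separated the groups. Poly-A spikes, bacterial transcripts added before labelling, read 4.89 to 4.93 on Tumor arrays and 7.36 to 7.84 on A16 arrays, and hybridisation spikes, added later, read 10.91 to 11.18 on Tumor arrays and 9.78 to 10.18 on A16 arrays. The 3′ probe set of beta-actin exceeded its 5′ probe set by 2.25 to 2.37 log2 units on Tumor arrays and by 0.64 to 0.71 on A16 arrays, and that of GAPDH by 0.25 to 0.33 on Tumor arrays and by -0.055 to 0.003 on A16 arrays. The position of the member probe sets along their transcripts was not used here, and the part of RNA quality or labelling in the falls of Nid1, Lama4, Hspg2, Col4a1 and Lamc1, and in the unequal values of Lamc1, Nid1 and Lama4 probe sets, was not tested. The labels name no labelling batch, and any difference in labelling that follows the groups cannot be told apart from them.

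Of the other type IV collagen and laminin chains, 8 of 10 had a probe set, and 1 was lower, 1 higher and 6 not called, with a median of 0.073. The shares of all genes were 5.44% called lower and 5.45% called higher. Lamb3, the beta chain of an epithelial laminin, read 6.06, 6.05 and 6.26 in Tumor, against 8.03, 8.27 and 8.18 in A16, and fell (means 6.16 in Tumor and 8.16 in A16, PLIER log2 difference -2.53). Col4a5, which with other chains forms the collagen network of the kidney filter, read 7.86, 8.03 and 7.83 in Tumor, against 6.23, 6.14 and 5.83 in A16, a 3.68-fold rise (1.88 ± 0.15). Neither gene overlapped between groups. Lama5 (0.15 ± 0.13) and Lama3 (0.13 ± 0.16), alpha chains like Lama2 and Lama4, were not called.

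Other proteins of the basement membrane zone numbered 15 measured of 19, of which 3 were lower, 1 higher and 11 not called (median -0.033). Beside them stand the shares of all genes, 5.44% lower and 5.45% higher. Sparc, a collagen-binding glycoprotein, read 10.35, 10.26 and 10.72 in Tumor, against 12.75, 12.54 and 13.38 in A16, a 5.65-fold fall. Agrn, which encodes the proteoglycan agrin, read 7.83, 7.64 and 7.91 in Tumor, against 9.33, 9.60 and 9.84 in A16, and fell 3.56-fold. Tinagl1 read 6.44, 5.51 and 5.89 in Tumor, against 7.57, 7.32 and 7.42 in A16, a 2.82-fold fall. Its Tumor replicate 1 and technical replicate 2 lay apart, a spread that averaging them leaves out of the error. Without technical replicate 2 its log2 difference was -1.33. The 3 genes had all Tumor arrays below the A16 arrays. Fbln2, a fibulin that binds nidogen, was at 7.67, 7.69 and 7.83 in Tumor, against 7.02, 6.84 and 6.56 in A16. It rose 2.01-fold (1.01 ± 0.15), a value that fell under the 2-fold limit without Tumor replicate 2 (0.93) or A16 replicate 2 (0.82), under each other handling of technical replicate 2 (0.85 to 0.96) and with an offset of 16 (0.91), so that its call rests on these choices.

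Of the receptors, 17 of 19 were measured, and by the brightest probe set 0 were lower, 4 higher and 13 not called, with a median of 0.45. The called shares of all genes were 5.44% lower and 5.45% higher. At the adjusted p alone, 5 were lower (16.6% of all genes) and 9 higher (17.4%), with the same counts at an unadjusted p under 0.05 (21.3% of all genes lower and 22.5% higher), and PLIER called 0 lower (6.68% of all genes) and 5 higher (7.20%). Over all 34 probe sets of the receptors, 5 were called lower (6.39% of all probe sets) and 5 higher (5.51%). The lower ones belonged to Itga6, to the collagen receptors Ddr1 (-2.60) and Ddr2 (-1.75), on dimmer probe sets, and to Sdc2 (syndecan-2; -1.02 and -1.13), whose brightest probe set gave -0.80. Itgb4, the integrin beta chain that binds laminin at hemidesmosomes, read 11.58, 11.70 and 11.97 in Tumor, against 7.58, 7.37 and 7.78 in A16, a rise of 4.17 ± 0.16 on the log2 scale. Itga6, its alpha partner, read 12.01, 11.89 and 11.81 in Tumor, against 10.68, 10.62 and 10.46 in A16, a 2.51-fold rise, although a dimmer probe set of it was called lower (-1.03). Both chains were well apart between groups on these probe sets.

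Sdc1, the heparan sulfate carrying receptor syndecan-1, read 13.34, 13.32 and 13.42 in Tumor, against 12.17, 12.34 and 12.30 in A16, and rose 2.14-fold. Dag1, which encodes the laminin and perlecan receptor dystroglycan, read 11.34, 11.29 and 11.53 in Tumor, against 10.02, 10.36 and 10.57 in A16. Its 2.06-fold rise (1.04 ± 0.16) fell under 2-fold without Tumor replicate 2 (0.94) or A16 replicate 1 (0.85), and its 3 dimmer probe sets gave -0.27, -1.58 and -0.18, none of them called. Itgb1, the beta chain shared by many laminin and collagen receptors, differed by 0.025 ± 0.12.

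**Figure D4:**
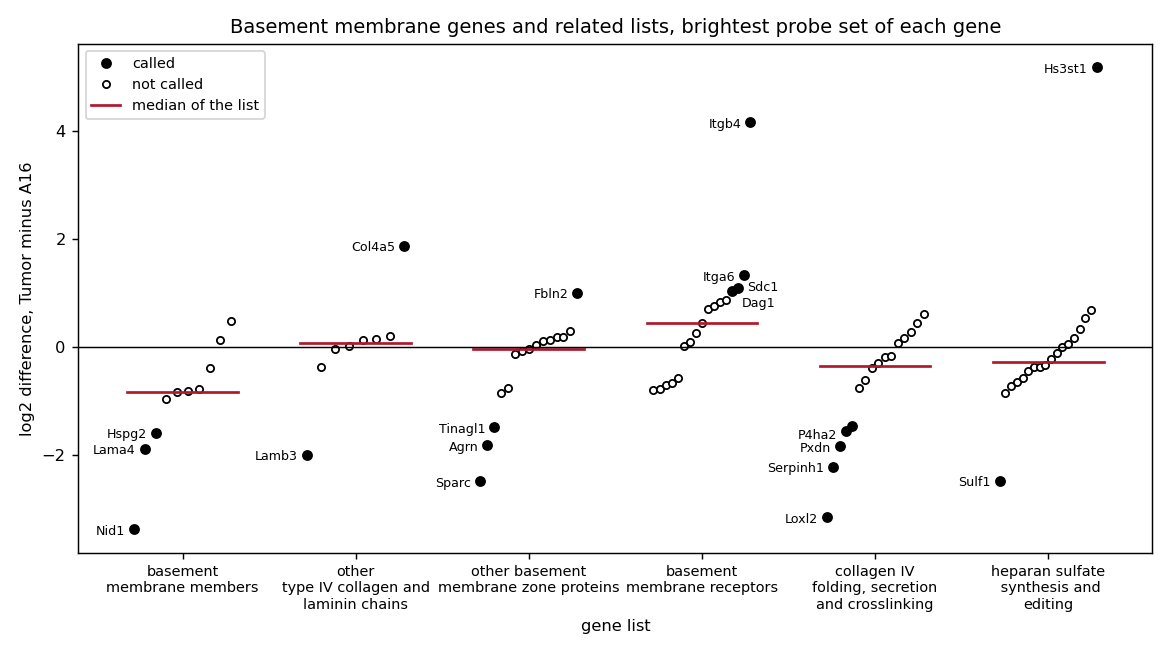
Log2 difference, Tumor minus A16 (vertical axis), for each basement membrane gene and each gene of 5 related lists (horizontal axis), by its brightest probe set; filled points were called and red lines are list medians. The median was -0.83 for the basement membrane genes and 0.45 for their receptors.

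Enzymes and chaperones that fold, secrete and crosslink type IV collagen were lower or not called. Of 16 measured of 18, 5 were lower, 0 higher and 11 not called (median -0.35), with 9 lower and 3 higher at an unadjusted p under 0.05 in limma, and 5 lower and 0 higher under PLIER, beside the shares of all genes given for the receptors. Loxl2, a lysyl oxidase that crosslinks the type IV collagen network, read 7.88, 7.81 and 8.01 in Tumor, against 11.16, 11.01 and 11.09 in A16, an 8.95-fold fall. Pxdn, the peroxidase that forms another crosslink of that network, read 10.03, 10.05 and 9.76 in Tumor, against 11.79, 12.01 and 11.59 in A16, a 3.59-fold fall. Their other probe sets were also called lower (-1.60 for Loxl2 and -3.08 for Pxdn). The collagen chaperone Serpinh1 read 10.70, 10.69 and 11.05 in Tumor, against 12.83, 12.83 and 13.38 in A16, and fell 4.69-fold. P4ha2, a catalytic subunit of collagen prolyl hydroxylase, read 9.19, 9.11 and 9.06 in Tumor, against 10.81, 10.55 and 10.67 in A16, and fell 2.97-fold. P4ha1, its paralog, was the fifth (2.76-fold lower) and was named after its value was seen. The other probe sets of Serpinh1 (-0.77) and P4ha2 (-0.68) were not called. Over all 25 probe sets of this list, 11 were called lower (6.39% of all probe sets) and 0 higher (5.51%). Colgalt1 (-1.82, -1.83 and -1.63) and Mia3 (-1.42) were called lower on dimmer probe sets only. Their brightest probe sets gave -0.77 and 0.44.

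Heparan sulfate, the sugar chain of perlecan and agrin, is built and edited by enzymes of which all 18 were measured, and 1 was lower, 1 higher and 16 not called (median -0.28). These counts are near the shares of all genes, 5.44% called lower and 5.45% called higher. Hs3st1, a sulfotransferase that modifies the finished chain, read 11.04, 11.09 and 10.87 in Tumor, against 5.76, 6.15 and 5.59 in A16, a 36.6-fold rise (5.20 ± 0.16) and the largest of the related genes. Sulf1, which removes sulfate outside the cell, read 6.16, 6.02 and 6.09 in Tumor, against 8.50, 8.76 and 8.51 in A16, and fell 5.59-fold (-2.48 ± 0.11), while its other probe set gave 0.12. The 16 related genes named here with their array values were picked among called genes. Their adjusted p values (1.38e-05 to 0.00388 in limma) are low by that choice. None overlapped between groups, which that choice also favours. Of all probe sets, which were not picked in this way, 25.0% had all Tumor arrays below the A16 arrays and 27.6% above.

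**Figure D5:**
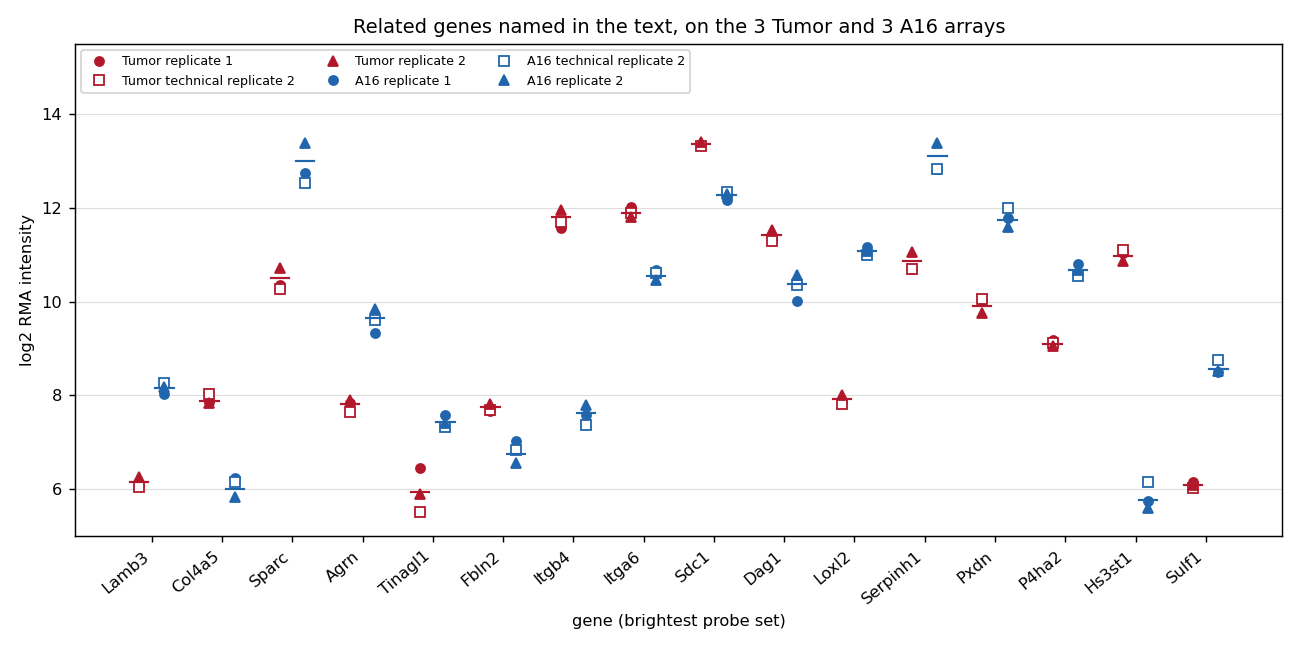
Log2 RMA intensity (vertical axis) of the 16 related genes (horizontal axis) on the 3 Tumor arrays (red, left of each pair) and the 3 A16 arrays (blue); open squares are technical replicate 2 and bars are the means of 2 replicates. Itgb4 and Hs3st1 were higher in Tumor by 4.17 and 5.20 log2 units, whereas Loxl2, Sparc and Sulf1 were lower by over 2 units.

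Markers of cell types that make or border basement membranes are given beside these results, and in RNA of whole cultures fewer cells of a type and less RNA per cell cannot be told apart. No array value is at 0, since RMA keeps a floor. Of all genes, 5.44% were called lower and 5.45% higher under RMA, and 6.68% lower and 7.20% higher under PLIER. At an unadjusted p under 0.05 in limma, 21.3% were lower and 22.5% higher. The fibroblast marker Vim differed by -0.097 ± 0.11, while 4 of the 15 fibroblast markers were lower, 0 higher and 11 not called. The 4 were Col1a1 (-3.46), Thy1 (-1.95), Col1a2 (-1.39) and Fn1 (-1.27). The 11 lay between -0.57 (Lum) and 0.45 (Twist1), with Pdgfra at -0.059 and Col3a1 at -0.065. The summed linear level of all 15 was 63731 to 66370 in Tumor and 93424 to 102300 in A16. Endothelial markers (10 measured of 12, 0 called under RMA, 2 lower and 1 higher under PLIER, and 2 lower and 2 higher at an unadjusted p under 0.05) summed to 750 to 811 in Tumor and 849 to 994 in A16, with the defining Pecam1 at 6.35 in Tumor and 5.83 in A16. Of 10 pericyte and smooth muscle markers, 3 were lower (Acta2, Abcc9 and Smtn), 0 higher and 7 not called. The 7 lay between -0.98 (Kcnj8) and 0.50 (Cnn1), with Notch3 at 0.39. PLIER called 4 lower and 0 higher, and 5 were lower and 2 higher at an unadjusted p under 0.05 in limma. The sum, most of it Acta2 and Smtn, was 2086 to 2510 in Tumor and 4072 to 5807 in A16. Of 10 epithelial markers, 0 were lower, 1 higher (Krt8, 11.02 in Tumor and 9.52 in A16) and 9 not called. The 9 lay between -0.34 (Krt14) and 0.93 (Cdh1), with Epcam at -0.16. The epithelial sum, most of it Krt8, was 2355 to 2604 in Tumor and 1067 to 1187 in A16. Of macrophage and leukocyte markers (9 of 10 measured), 0 were lower, 2 higher (Csf1r by 3.14 and Cd68 by 1.07) and 7 not called. The 7 lay between -0.17 (Cd14) and 0.33 (Lyz2), with the leukocyte marker Ptprc at -0.068. The sum of this list was 1715 to 1792 in Tumor and 1327 to 1485 in A16. Of 6 adipocyte markers, 1 was lower (Cfd by 1.05), 0 higher and 5 not called. The 5 lay between -0.080 (Lep) and 0.61 (Fabp4). PLIER called 1 lower and 1 higher, and the same counts were found at an unadjusted p under 0.05 in limma. The adipocyte sum, in which Cfd was the brightest marker, was 276 to 293 in Tumor and 372 to 379 in A16. Schwann cell markers (5 of 7) summed to 277 to 298 in Tumor and 256 to 306 in A16, and skeletal muscle markers (7) to 307 to 335 in Tumor and 314 to 351 in A16, with 0 called under RMA or PLIER in either list (0 lower and 1 higher, and 2 lower and 1 higher, at an unadjusted p under 0.05). The part of a changed mix of cells in the differences of the basement membrane genes was not tested.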

How the data were processed

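RNA of Tumor and A16 cells was profiled on 6 Affymetrix rat genome arrays. The authors adjusted the scans for background with the Affymetrix software and normalised them in Avadis by RMA and PLIER (no version is given in the sources used). Deposited values are array intensity, linear in scale, and the 12 sample records are an RMA and a PLIER record of each array. Here log2 of RMA intensity was taken, and log2 of PLIER, whose lowest value of 16 appeared to include an offset. RMA medians lay between 98 and 100.1, and detection calls were not used.

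Of 31099 probe sets, 57 array controls were left out. The platform annotation gave 1 gene symbol to 20826 of the other 31042, several to 436 and none to 9780, and genes were named only from probe sets with 1 symbol. The brightest probe set stood for a gene. Tumor was compared with A16 using lmFit and eBayes of limma 3.58.1 (R 4.3.3), two-sided, without covariate and with Benjamini-Hochberg adjustment over all 31042 probe sets, for 2 replicates per group. An error beside a log2 difference is the moderated SE, and precision is limited by the number of arrays. The script was tested on simulated data. Besides the 10 members, 13 lists were used, and 155 of the 170 genes in all 14 lists had a probe set. All members, and up to 4 called genes of the largest difference from each related list, were named. Single genes outside this rule were chosen after their values were seen (Lama3, Lama5, Itgb1, Ddr1, Ddr2, Sdc2, P4ha1, Colgalt1 and Mia3), as were single cell type markers. Members and lists were chosen with earlier results of these data known. Alternatives were PLIER, other handling of technical replicate 2, quantile normalization, a filter at the 30th percentile, an offset of 16, the mean of a gene's probe sets, each replicate left out, the replicate number as a block and the methods' t-test. Replicates 1 and 2 of the groups share only a number.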

Additional observations from a re-analysis of the deposited data

How the results depend on the processing

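The 6 lower probe sets and 3 lower genes kept those counts under a replicate block (6 and 3), which called 2035 lower and 1715 higher over all probe sets, and within 1.5 times under PLIER, other handling of technical replicate 2, quantile normalization, the dim filter, the offset of 16 and, for genes, the mean of a gene's probe sets. The replicate deviations correlated at 0.121 across only 2 numbers, so the numbers were not taken to pair samples. The methods' t-test at its unadjusted threshold gave 4 probe sets and 2 genes lower (1493 lower and 1607 higher over all), missing the dimmer Nid1 probe set and Hspg2. After Benjamini-Hochberg it gave 0 probe sets and 0 genes lower, and 8 lower and 4 higher over all. Leaving out each replicate gave 6 to 8 probe sets and 3 to 5 genes lower, the highest counts being without A16 replicate 1, when Col4a1 (brighter) and Col4a2 were called, and 2502 probe sets were lower over all, against 1985 with all replicates and 1684 without A16 replicate 2. The difference reversed for Lama2 under PLIER (-0.12), for Lamb1 over replicates left out (-0.038 to 0.30), and for the dimmer Lama4 probe set under PLIER (-0.76), without technical replicate 2 (-0.051), with it averaged into replicate 2 (-0.0011), under quantile normalization (-0.050) and over replicates left out (-0.054 to 0.082). The dimmer Nid1 probe set was not called under PLIER (-0.64). The causes were not tested. The dim filter removed Lama2 and the dimmer Lama4 probe set, where signal near the floor limits any fold. Leaving out replicate 1 also left out technical replicate 2, and a lone replicate was assumed to vary like the other group. No other member probe set lost or gained a call or changed sign under the alternatives other than the methods' t-test. Of the alternative values of the 30 member and related probe sets, 375 kept direction and side of the threshold, 33 were weaker, 2 stronger and 8 reversed.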
